A study of Mus musculus with 12 samples.

Results

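The GIMAP genes (GTPases of immunity-associated proteins) were followed on Illumina mouse bead arrays across 3 lymphoid populations. The members were the 8 genes Gimap1, Gimap3, Gimap4, Gimap5, Gimap6, Gimap7, Gimap8 and Gimap9, taken by name, with every probe annotated to them. Of these, 7 genes had 12 probes in all, among 45274 probes with values, and no probe was named for Gimap3. A probe was kept for testing when it was detected, at a detection p under 0.01, on at least 4 of the 12 arrays. The 8 probes that passed belonged to 6 of the listed genes, and each was detected on all 12 arrays.

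ITNK cells (4 arrays) are natural killer-like cells derived in vitro from DN3 thymocytes after loss of Bcl11b, a transcription factor that holds T cell identity. LAK cells (4 arrays) are natural killer cells expanded with IL-2, labelled C57B8 by strain, and served as the natural killer population. DN3 thymocytes (4 arrays), labelled parental T cells and C57B7, are precursors that lack CD4 and CD8 and rearrange the T cell receptor beta gene. ITNK was labelled C57B6. These strain labels differ only in their last digit, and whether the groups came from different strains cannot be told from them. The labels attach 1 common protocol to all 12 samples without assigning its steps to groups: Cre-ERT2; Bcl11bflox/flox cells given 1 µM 4-OHT (4-hydroxytamoxifen, which switches on the Cre recombinase) for 48 h in medium with Flt-3 ligand and IL-7, sorting of DN3 cells of Bcl11bCKO/CKO and Bcl11bCKO/+ genotype, co-culture on OP9-DL1 (a stromal line that presents a Notch ligand) with 100 ng/ml IL-2, and collection at day 14. Whether the DN3 arrays hold freshly sorted or cultured cells, and which Bcl11b genotype DN3 and LAK cells carried, is therefore not given in the sources used here. No label names a separate mouse or culture for each array, so every p-value here measures the spread between arrays, and that spread may be technical.

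GIMAP proteins are small GTPases found mainly in lymphocytes, where several sit on intracellular membranes such as those of lysosomes and the endoplasmic reticulum. They are best known for keeping resting lymphocytes alive: loss of GIMAP5 makes rats and mice short of lymphocytes, natural killer cells included in the mouse. The genes lie in 1 cluster on mouse chromosome 6, in the order Gimap8, Gimap9, Gimap4, Gimap6, Gimap7, Gimap1, Gimap5 and Gimap3, with Gimap6 and Gimap3 on the opposite strand to the others.

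The arrays each detected 11814 to 13141 probes, and their number (4 per group) limits the precision of every value here. Of the 2 slides, 1 carried ITNK 1, ITNK 2 and the 4 LAK arrays (slide 1), and the other carried ITNK 3, ITNK 4 and the 4 DN3 arrays (slide 2). The targeted gene, Bcl11b, averaged 8.59 ± 0.35 in ITNK, 5.76 ± 0.36 in LAK and 11.77 ± 0.24 in DN3 (normalized log2 signal, SD, n = 4 each), and the groups did not overlap; whether its probe lies in the deleted part is not given. Of 10 DN3 thymocyte markers tested, the targeted gene Bcl11b among them, 7 were lower and none higher in ITNK than in DN3. Of 10 natural killer markers tested, 7 were higher and none lower. Of all genes tested, 28.2% were lower and 23.5% higher in this comparison. Among the 7, Klrb1c, Klrk1, Tyrobp and Eomes were detected on no DN3 array, so the filter kept them through the other groups. The 3 natural killer markers that did not pass, Klra7, Klra8 and Klra4, were detected on all LAK arrays and on no ITNK array. The probe of the pre-T cell receptor gene Ptcra was detected on all DN3 arrays and on no other array, while probes of the defining natural killer gene Ncr1 and of Gzmb were detected on none of the 12. Stromal transcripts also differed: the summed linear level of 16 stromal markers (Thy1, which T cells express, left out) was 1516 to 2275 in ITNK, 348 to 356 in LAK and 1950 to 6308 in DN3. Per array, 8 to 11 of them were detected in ITNK, 0 in LAK and 8 to 12 in DN3, and their part in the differences below was not tested. In RNA from bulk samples, fewer cells of a type and less RNA per cell cannot be told apart.

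Of the 6 tested members, Gimap7 had the largest difference in both ITNK comparisons and Gimap5 in LAK against DN3. Gimap6 and Gimap7 were lower in ITNK than in both LAK and DN3. The Gimap6 call against DN3 was lost with slide as a block, within slide 2 alone and with median scaling of the arrays. Gimap5, by 1 of its 2 probes, was lowest in DN3. Gimap8 was higher in LAK than in either other population, and neither Gimap1 nor Gimap9 passed the test in any comparison. Levels below are normalized log2 signals of the brightest probe of each gene, and since probes differ in brightness, each gene is compared with itself only.

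**Figure D1:**
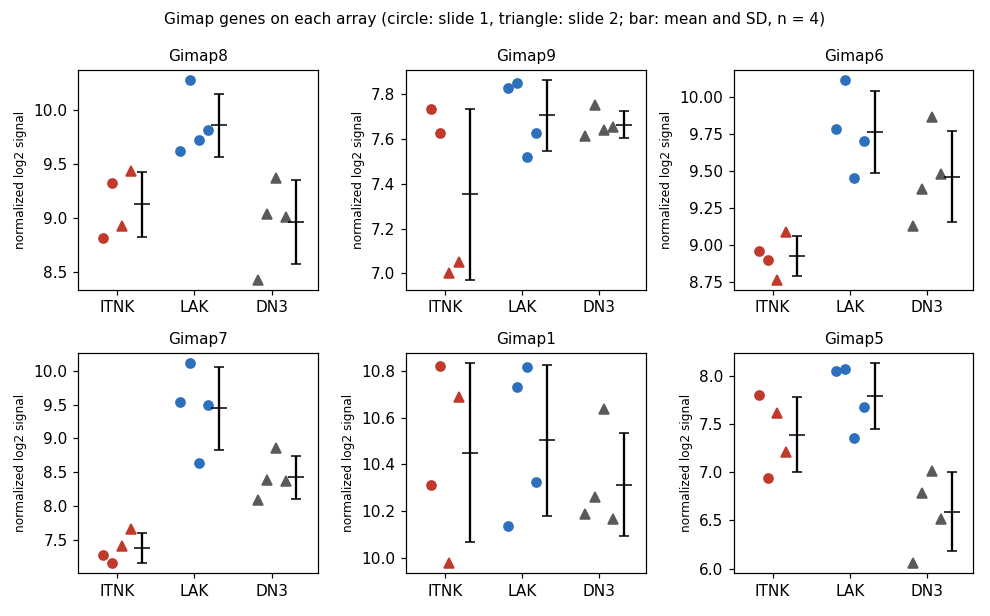
Normalized log2 signal (vertical axis) of the 6 tested Gimap genes in 4 ITNK, 4 LAK and 4 DN3 arrays (horizontal axis), in chromosomal order of the genes. Circles are arrays of slide 1, triangles those of slide 2, and bars give the mean and SD of each group. Gimap7 lies at 7.16 to 7.66 in ITNK, 8.64 to 10.11 in LAK and 8.09 to 8.86 in DN3, whereas the 3 groups overlap for Gimap1.

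Gimap7 encodes a GTPase whose human form hydrolyses GTP as a pair of like molecules. Its level was 7.29, 7.16, 7.42 and 7.66 in ITNK, against 9.54, 10.11, 8.64 and 9.49 in LAK and 8.09, 8.38, 8.86 and 8.37 in DN3. All ITNK arrays lay below every array of both other groups. The means were 7.38 ± 0.22 in ITNK, 9.44 ± 0.61 in LAK and 8.43 ± 0.32 in DN3 (SD, n = 4 each). ITNK was therefore 4.17-fold below LAK (log2 difference -2.06, SE 0.25, limma adjusted p = 1.91e-05) and 2.06-fold below DN3 (log2 difference -1.05, SE 0.25, limma adjusted p = 0.003). LAK was 2.02-fold above DN3 (log2 difference 1.01, limma adjusted p = 0.00286), although the LAK 3 array (8.64) fell among the DN3 arrays. With slide as a block all of these calls held, at log2 differences of -2.22 for ITNK against LAK, -0.89 for ITNK against DN3 and 1.33 for LAK against DN3.

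Gimap6, whose protein binds the autophagy protein GABARAPL2, had its group means in the same order. It measured 8.96, 8.90, 8.77 and 9.09 in ITNK, against 9.78, 10.12, 9.45 and 9.70 in LAK and 9.13, 9.38, 9.86 and 9.48 in DN3. The highest ITNK array (9.09) was just under the lowest DN3 array (9.13), and LAK and DN3 overlapped. The log2 difference was -0.83 for ITNK against LAK (SE 0.16, 1.78-fold lower, limma adjusted p = 0.00115) and -0.53 for ITNK against DN3 (SE 0.16, 1.45-fold lower, limma adjusted p = 0.0132). LAK and DN3 differed by 0.30 (95% interval -0.05 to 0.65, limma adjusted p = 0.123). The call against DN3 was lost with slide as a block (log2 difference -0.53, limma adjusted p = 0.0516), within slide 2 alone (limma adjusted p = 0.0596) and with median scaling of the arrays (log2 difference -0.25, limma adjusted p = 0.301), which moved the median of all genes to 0.16.

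With the main processing, both genes were thus called lower in ITNK than in LAK and DN3, as were 294 of the 8100 genes tested (3.63%). Over the 12 arrays, which share their groups, slides and normalization, Gimap6 and Gimap7 had a Pearson correlation of 0.95, and of 0.88 after each group's mean was removed. The next pair within groups was Gimap6 with Gimap8, at 0.79. Gimap1 with Gimap5 had the lowest, at -0.30.

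The promoters of these adjacent genes, which had like patterns, are given beside that of Gimap5, which lies in the same cluster and had the opposite sign between ITNK and DN3. Each line runs 5′ to 3′ in the direction of the gene, 250 bases before to 50 bases after its start (RefSeq, GRCm38.p6). Capitals mark letters of the ETS family motif CAGGAA or the RUNX family motif TGTGGT on either strand.
Gimap6 promoter, chr6:48708195-48708494, minus strand: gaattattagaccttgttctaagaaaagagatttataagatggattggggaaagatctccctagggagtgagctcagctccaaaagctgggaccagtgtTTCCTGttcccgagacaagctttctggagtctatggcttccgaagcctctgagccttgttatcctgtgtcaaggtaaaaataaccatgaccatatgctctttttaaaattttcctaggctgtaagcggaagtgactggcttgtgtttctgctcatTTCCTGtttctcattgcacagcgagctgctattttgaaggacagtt
Gimap7 promoter, chr6:48718371-48718670, plus strand: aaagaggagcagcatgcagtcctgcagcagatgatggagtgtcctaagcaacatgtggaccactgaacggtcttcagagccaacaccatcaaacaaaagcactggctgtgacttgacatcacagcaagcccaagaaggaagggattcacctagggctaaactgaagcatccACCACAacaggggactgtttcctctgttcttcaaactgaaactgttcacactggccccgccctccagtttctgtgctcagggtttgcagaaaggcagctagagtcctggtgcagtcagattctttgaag
Gimap5 promoter, chr6:48745947-48746246, plus strand: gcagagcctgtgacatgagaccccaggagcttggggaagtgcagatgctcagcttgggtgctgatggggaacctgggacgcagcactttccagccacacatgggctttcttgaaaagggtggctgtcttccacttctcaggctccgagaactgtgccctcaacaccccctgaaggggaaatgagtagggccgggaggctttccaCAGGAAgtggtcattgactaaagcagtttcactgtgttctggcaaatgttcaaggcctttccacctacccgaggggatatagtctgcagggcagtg

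The Gimap6 window held 2 ETS matches and no RUNX match, the Gimap7 window 1 RUNX match and no ETS match, and the Gimap5 window 1 ETS match. The table held 9 promoters for the 8 genes, since Gimap8 has 2 starts whose windows overlap. ETS letters occurred in 5 of the 9, against 30.6% of 32851 promoters in the same table, and RUNX letters in 3 of 9, against 16.8%. The E-box letters CANNTG were in 7 of 9 (72.3% of all), KLF letters CACCC in 6 (57.5%), TCF/LEF letters CTTTGA in 2 (16%) and T-box letters GGTGTGA in 2 (3.98%), both of these being the same match in the overlapping windows of Gimap8. The Notch partner CSL (GTGGGAA, 6.38% of all) and FOXO (GTAAACA, 3.65%) had 1 match each, both at Gimap3, and the GATA letters AGATAA (11.2%) had none. All were searched on both strands, and no motif's letters contain those of another. GC content ran from 43.3% at Gimap6 to 57.3% at Gimap9, against a median of 52.7% over all promoters. A match is a description of letters, not of a bound site.

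Gimap5, the member needed for lymphocyte survival in mice and rats, had 2 detected probes that gave different pictures. By the probe with the higher mean it measured 7.80, 6.94, 7.61 and 7.20 in ITNK, against 8.05, 8.07, 7.35 and 7.68 in LAK and 6.05, 6.78, 7.01 and 6.51 in DN3. LAK lay wholly above DN3, while ITNK overlapped both. By this probe ITNK was 1.74-fold above DN3 (log2 difference 0.80, SE 0.23, limma adjusted p = 0.0104) and LAK 2.29-fold above DN3 (log2 difference 1.20, SE 0.23, limma adjusted p = 0.000474). ITNK and LAK differed by -0.40 (95% interval -0.90 to 0.10, limma adjusted p = 0.208).

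The other Gimap5 probe read 7.41, 7.04, 6.94 and 7.03 in ITNK, against 7.02, 7.16, 6.81 and 6.78 in LAK and 6.73, 6.99, 7.26 and 7.13 in DN3, with all 3 groups overlapping. Between the groups its log2 differences came to 0.08 (ITNK minus DN3), 0.17 (ITNK minus LAK) and -0.08 (LAK minus DN3), none of which passed the test over all probes (limma adjusted p of 0.406 to 0.662), where 49.7%, 31.7% and 59.6% of all 13571 probes passed. The gap between the probes, first minus second, averaged 0.28 in ITNK, 0.85 in LAK and -0.44 in DN3. In exact two-sided permutation tests on this gap, ITNK and DN3 differed by 0.72 and LAK and DN3 by 1.28 (exact p = 0.0286 each, the smallest that 4 against 4 arrays allow). ITNK and LAK differed in the gap by -0.56 (exact p = 0.0571), and over the 6 such tests on Gimap5 and Gimap1 these 3 adjusted to 0.0856 in the exact test. So did the gap between the Gimap1 probes in ITNK against DN3, which differed by -0.25 (exact p = 0.0571). The probe test was chosen after the probes were seen to disagree. What the 2 probes share or miss in the transcript is not given in the sources used here, and the Gimap5 differences above rest on 1 probe. With the mean of both probes they came to 0.44 for ITNK against DN3 (limma adjusted p = 0.0493), -0.12 for ITNK against LAK (limma adjusted p = 0.649) and 0.56 for LAK against DN3 (limma adjusted p = 0.0133).

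**Figure D2:**
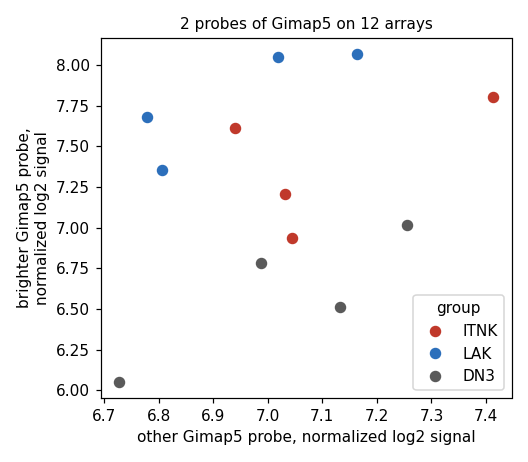
Normalized log2 signal of the 2 detected Gimap5 probes on 12 arrays, the probe with the higher mean on the vertical axis and the other on the horizontal axis, coloured by group. LAK and DN3 arrays separate on the vertical axis (7.35 to 8.07 in LAK, 6.05 to 7.01 in DN3) and overlap on the horizontal one.

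Gimap8 encodes the largest family member, with several GTPase domains in a row. It measured 8.82, 9.33, 8.93 and 9.44 in ITNK, against 9.62, 10.28, 9.72 and 9.82 in LAK and 8.43, 9.04, 9.37 and 9.02 in DN3. Every LAK array was above every array of the other two groups, which overlapped each other. ITNK was 1.66-fold below LAK (log2 difference -0.73, SE 0.20, limma adjusted p = 0.0127), and LAK was 1.86-fold above DN3 (log2 difference 0.90, SE 0.20, limma adjusted p = 0.00166). ITNK and DN3 differed by 0.16 (95% interval -0.28 to 0.60, limma adjusted p = 0.531), and the sign turned without DN3 1 (-0.01). Of the gene's 3 probes only this one was detected: the other two read 4.21 to 4.51 and were detected on no array.

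Gimap9 gave 7.73, 7.63, 7.00 and 7.05 in ITNK, against 7.83, 7.85, 7.52 and 7.63 in LAK and 7.61, 7.75, 7.64 and 7.65 in DN3. The 2 ITNK arrays of slide 1 lay at the level of LAK and DN3, and the 2 of slide 2 lay below every other array. The slide means within ITNK were 7.68 and 7.03, a gap of 0.66 that only 1.48% of all tested genes matched or exceeded. Over all arrays ITNK differed from LAK by -0.35 (95% interval -0.69 to -0.02, limma adjusted p = 0.101) and from DN3 by -0.31 (95% interval -0.65 to 0.03, limma adjusted p = 0.113). With slide as a block the difference from DN3 became -0.64 (limma adjusted p = 0.000736; 0.0016 within slide 2) and that from LAK -0.03 (limma adjusted p = 0.905). LAK and DN3, which share no slide, differed by 0.04 over all arrays (limma adjusted p = 0.833) and by -0.61 when set against each other through ITNK with slide as a block (limma adjusted p = 0.00993). A gap between the slides and a gap between the 2 pairs of ITNK samples on them cannot be told apart.

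**Figure D3:**
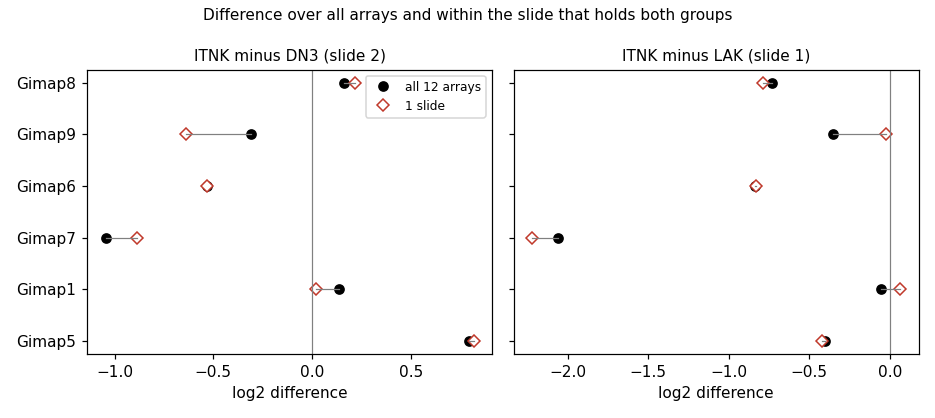
Log2 difference (horizontal axis) of each tested Gimap gene for ITNK minus DN3 and ITNK minus LAK, over all arrays (filled circles) and within the 1 slide that holds both groups (open diamonds). Gimap9 moves most, to -0.64 against DN3 within slide 2 and to -0.03 against LAK within slide 1, while Gimap6 stays at -0.53 and -0.83.

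Gimap1, which mature T and B cells of mice need to survive, passed no test. Its levels were 10.31, 10.82, 9.98 and 10.69 in ITNK, against 10.14, 10.73, 10.82 and 10.33 in LAK and 10.19, 10.26, 10.64 and 10.17 in DN3. The groups overlapped throughout. ITNK differed from LAK by -0.05 (95% interval -0.47 to 0.37, limma adjusted p = 0.863) and from DN3 by 0.14 (95% interval -0.28 to 0.56, limma adjusted p = 0.589), and LAK from DN3 by 0.19 (95% interval -0.23 to 0.61, limma adjusted p = 0.422). The other probe gave 7.08 to 7.96 in ITNK, 7.34 to 7.61 in LAK and 6.92 to 7.46 in DN3, with log2 differences of 0.06 (ITNK minus LAK), 0.39 (ITNK minus DN3) and 0.33 (LAK minus DN3) that also missed the threshold. With median scaling Gimap1 passed in both comparisons against DN3 (log2 difference 0.49 for ITNK, limma adjusted p = 0.0346; 0.48 for LAK, limma adjusted p = 0.0316), where the median of all genes was itself 0.16.

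Gimap4, known in mice for hastening the death of T cells once apoptosis has begun, was not well above background. Its 2 probes read 4.41 to 5.05 over the 12 arrays, and the only reading that counted as detected was 1 of them on the DN3 4 array (5.05). No fold is given for Gimap4 or for the 2 dim Gimap8 probes, since neither side of a comparison was measured.

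**Figure D4:**
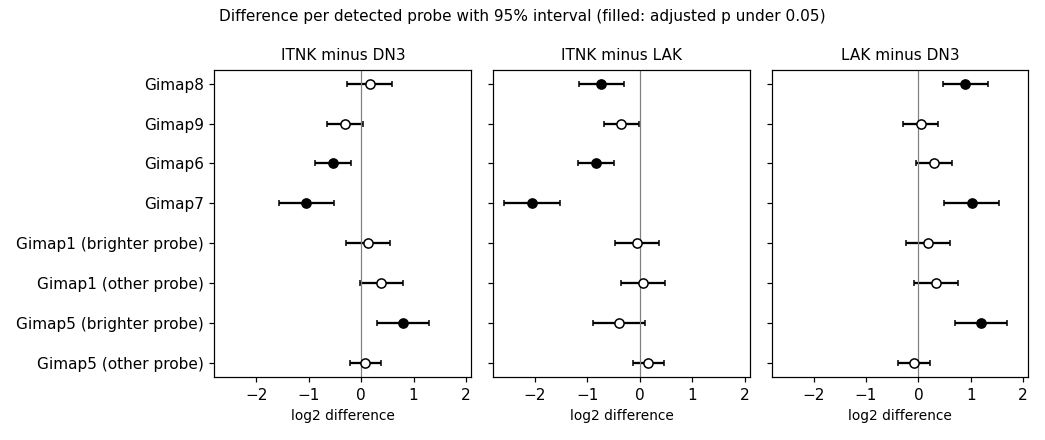
Log2 difference with its 95% interval (horizontal axis) for the 8 detected Gimap probes, in ITNK minus DN3, ITNK minus LAK and LAK minus DN3. Filled points passed at an adjusted p under 0.05. Gimap7 has the furthest points from 0 in both ITNK comparisons (-1.05 and -2.06), and the 2 Gimap5 probes disagree in ITNK minus DN3 and in LAK minus DN3.

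Counted over the family, 3 of the 6 tested genes passed for ITNK against DN3 (Gimap5 higher, Gimap6 and Gimap7 lower), where 51.7% of all 8100 genes passed, 23.5% higher and 28.2% lower. For ITNK against LAK 3 passed, all lower (Gimap6, Gimap7 and Gimap8), where 33.7% of all genes passed, 18.0% higher and 15.7% lower. For LAK against DN3 3 passed, all higher (Gimap5, Gimap7 and Gimap8), where 60.5% passed, 28.6% higher and 31.9% lower. The groups did not overlap for 2 of the 6 genes between ITNK and DN3 (47.8% of all genes), 3 between ITNK and LAK (31.8%) and 2 between LAK and DN3 (56.4%). At an added 2-fold minimum, Gimap7 alone remained in both ITNK comparisons (13.0% of all genes against DN3, 8.91% against LAK), and Gimap5 and Gimap7 remained for LAK against DN3 (20.0% of all genes). The medians of all genes were -0.045, -0.01 and -0.02 in the 3 comparisons. The comparisons share their groups, so their counts are not independent. With slide as a block the count for ITNK against DN3 was again 3, but it held Gimap9 in place of Gimap6.

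Within LAK and DN3, single arrays were the highest or lowest for most members at once. DN3 3 was the highest DN3 array for 5 of the 6 genes and DN3 1 the lowest for 5 of 6, while over all genes these arrays held those places for 27.6% and 24.5%. LAK 2 was the highest LAK array for 5 of 6 (20.2% of all genes) and LAK 3 the lowest for 4 of 6 (33.4%). Among ITNK arrays no array was the highest or the lowest for more than 3 of the 6. DN3 1 also had the highest summed stromal level of the DN3 arrays (6308, against 1950, 3136 and 5291 in DN3 2, DN3 3 and DN3 4), and the part of this in the Gimap values was not tested.

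**Figure D5:**
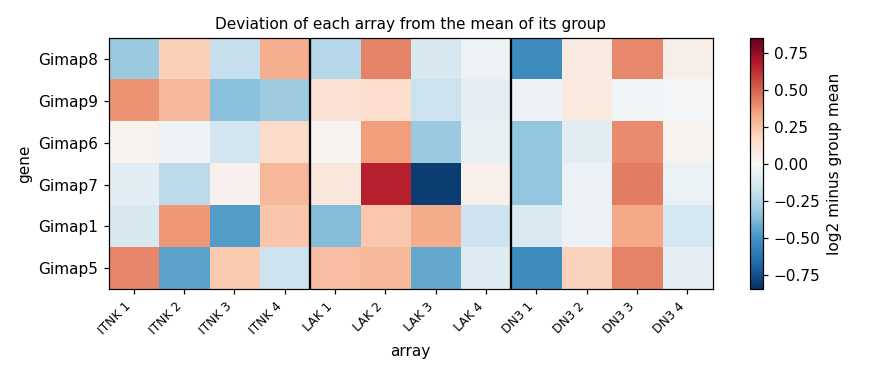
Deviation of each array (horizontal axis) from its group's mean log2 signal, as colour, for the 6 tested Gimap genes (vertical axis, chromosomal order). Within DN3, DN3 1 is the lowest array for 5 of the 6 genes (not Gimap1) and DN3 3 the highest for 5 of the 6 (not Gimap9). LAK 3 has the darkest low cell at Gimap7.

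Genes at the borders of the cluster did not follow one pattern. Of 93 genes listed within 500 kb on either side, 19 had a named probe and 8 were tested. Next to Gimap5 and Gimap3, the membrane protein genes Tmem176b and Tmem176a passed no comparison (log2 differences of 0.22 and 0.14 for ITNK against DN3, limma adjusted p = 0.587 and 0.717). On the other side, before Gimap8, the nearest tested gene was Repin1, with the untested Zfp775 and AI854703 in between. Repin1 was 0.84 higher in ITNK than in LAK (log2, limma adjusted p = 0.000183), opposite in sign to Gimap8. It did not pass against DN3 (0.21, limma adjusted p = 0.185). In all, 1 neighbour was higher and 3 were lower in ITNK than in DN3 (median 0.18), 3 higher and 2 lower in ITNK than in LAK (median 0.28), and 1 higher and 3 lower in LAK than in DN3 (median -0.25), against 51.7%, 33.7% and 60.5% of all genes called in these comparisons. The farther neighbours with the largest differences from DN3 in ITNK were Krba1 (-0.91) and Igf2bp3 (-0.74), both lower, and Gpnmb (0.67), higher.

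GIMAP proteins have been studied beside the Bcl2 family, whose members hold back or trigger mitochondrial cell death. Of 9 such genes tested, 4 were higher and none lower in ITNK than in DN3 (median log2 difference 0.40), where 51.7% of all genes passed and 23.5% were higher. These were the survival genes Bcl2l1 (1.05, limma adjusted p = 1.98e-05) and Bcl2 (0.40, limma adjusted p = 0.00301), and the death-promoting genes Bid (0.56, limma adjusted p = 0.00027) and Pmaip1 (at least 1.60-fold, detected on no DN3 array). Against LAK, ITNK had 2 higher, Bcl2l1 (0.37) and Pmaip1 (0.36), and 1 lower, Bid (-0.47), with a median of 0.04 (33.7% of all genes passed). For LAK against DN3, 5 were higher and none lower (60.5% of all genes passed and 28.6% were higher), with a median of 0.32, led by Bid (1.03) and Bcl2l1 (0.68).

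The autophagy list, which holds the GABARAP family beside core autophagy genes, was split. Of 10 genes tested, 3 were higher in ITNK than in DN3, Gabarapl1 (1.07, limma adjusted p = 1.02e-06), Gabarap (0.55) and Atg3 (0.52), and 2 were lower, among them the kinase gene Ulk1 (-0.80), with a median of 0.11. This is close to the share of all genes that passed (51.7%, with 23.5% higher and 28.2% lower). ITNK against LAK gave 1 higher, Atg7 (0.42), and 2 lower, the cargo receptor gene Sqstm1 (-0.79) and Gabarapl1 (-0.39), with a median of -0.03, where 33.7% of all genes passed. LAK against DN3 gave 5 higher and 4 lower, with Gabarapl1 (1.46) and Sqstm1 (1.29) highest and Ulk1 (-1.03) lowest, and a median of 0.27, where 60.5% of all genes passed.

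Resting, recirculating lymphocytes are the state in which GIMAP proteins are best known. Of 15 tested genes of that state, 7 were lower in ITNK than in DN3, 1 was higher and 7 did not pass (median -0.43). Over all genes 51.7% passed, 28.2% lower and 23.5% higher, with a median of -0.045. The interleukin 7 receptor gene Il7r (-2.30, limma adjusted p = 1.22e-07), the chromatin organiser gene Satb1 (-1.47) and Klf3 (-1.04) were lower, and Cd52, encoding a lymphocyte surface glycoprotein, was higher (2.16). Against LAK, 5 were higher in ITNK and none lower (median 0.21, with 33.7% of all genes called and 18.0% higher), led by the quiescence factor gene Klf2 (3.43, limma adjusted p = 2.59e-07) and Il7r (1.17). LAK against DN3 gave 1 higher, Cd52 (2.45), and 7 lower, led by Klf2 (-3.82), with a median of -0.51, where 60.5% of all genes passed. Gimap6, Gimap7 and Gimap8 had the other sign to Klf2 and Il7r in ITNK against LAK. In that comparison 10 of the 15 list genes did not pass, and the Il7r probe was detected on only 2 LAK arrays.

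Transcription regulators with T cell roles, the ETS and RUNX families among them, all passed between ITNK and DN3: 3 of 13 were higher and 10 lower (median -0.79), where 51.7% of all genes passed. Id2, which natural killer cells need, was higher (2.65, limma adjusted p = 5.08e-09). The targeted gene Bcl11b (-3.18), the Notch receptor gene Notch3 (-2.58) and Ets1 (-1.88, limma adjusted p = 1.75e-07) were lower. Against LAK, 7 were higher and 2 lower (median 0.48), where 33.7% of all genes passed. The 2 lower were the T-box genes Tbx21 (-1.63) and Eomes (-1.31). LAK against DN3 gave 3 higher and 10 lower, with a median of -1.67, where 60.5% of all genes passed.

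The genes most like the family were found by Pearson correlation over the 12 arrays, a measure that the group differences and the shared normalization set in part. The mean of Gimap5, Gimap6, Gimap7 and Gimap8, each centred, was most like St6galnac3 (0.95), Malt1 (0.92), Cd72 (0.91), Pip4k2b (0.91) and Nod1 (0.91). Of the single members, Gimap6 was most like Cyria (0.96), Gimap7 St6galnac3 (0.95), Gimap5 Dad1 (0.93), Gimap8 Shisa5 (0.91), Gimap1 Marchf5 (0.90) and Gimap9 Fan1 (0.86). Since they were picked for following the members over these arrays, their group differences are a description: of the 10 genes, Cyria (log2 difference -0.67) and Fan1 (-0.44) were called lower in ITNK than in DN3, 9 were called lower in ITNK than in LAK, and 7 were called higher in LAK than in DN3. St6galnac3, Malt1 and Cd72 were dim: each was detected on 1 of 4 ITNK arrays and on all LAK arrays, while on DN3 arrays St6galnac3 was detected on 3, Malt1 on 1 and Cd72 on 0.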

How the data were processed

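Per the file headers, the authors' main deposited table gives each probe an intensity on each array, not normalized, with a detection fraction whose complement served as detection p. A second deposited table holds the authors' log2 values, made by a method not given in the sources used here, and served as an alternative. Intensities were background-corrected from the detection values (neqc, offset 16) and quantile normalized in limma 3.58.1 under R 4.3.3. Of 45281 probes, 7 had no value, 34880 had 1 symbol in the platform annotation, and 13571 were detected at p under 0.01 on at least 4 arrays. The brightest probe stood for each gene, which gave 8100 genes. All 12 arrays and 3 groups entered 1 linear model, tested two-sided with Benjamini-Hochberg adjustment over all genes in each comparison (called under 0.05), and probes were tested likewise over 13571. "At least" folds use the lowest detected signal per array. Lists and members were chosen with earlier results of these data known. All Gimap genes were named, and from each list up to 4 called genes with the largest differences, genes making up a count of 5 or fewer, and the likeness genes by highest correlation. Tmem176b and Tmem176a were named for their place beside the cluster, and Repin1 as the nearest tested gene on its other side. These choices and the probe-gap test were made after values were seen. The model was also run on simulated data, with genes drawn independently, no slide effects and fewer changed genes than were called here. Alternatives covered background, normalization, filters, probe choice, slide, replicate number, threshold and each array left out.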

Additional observations from a re-analysis of the deposited data

Results flagged for a closer look

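One reading stood apart from its group. The brighter of the 2 Gimap4 probes read 4.51 on LAK 4, where the nearest of the other 3 LAK arrays read 4.82, and this gap was 0.914 of the group's whole range, above Dixon's 95% critical value for 4 arrays. The probe was detected on no LAK array. Of 36 sets of 4 arrays examined over the 12 Gimap probes this was the 1 that passed, and chance passes about 1 in 20.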

How the results depend on the processing

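The counts of Gimap genes and of Gimap probes called were 3 in each comparison, and 3 to 4 with any 1 array left out. They changed by over 1.5 times under 2 settings. An added 2-fold minimum left 1 gene and 1 probe for ITNK against DN3 and 1 gene and 1 probe for ITNK against LAK, and median scaling gave 5 genes and 6 probes for LAK against DN3. Over all genes, the 2-fold minimum called 1055, 722 and 1617 in the 3 comparisons, and probes detected on all 12 arrays gave 1787 genes in place of 2727 for ITNK against LAK. Median scaling split the calls into 2422 higher and 1085 lower for ITNK against DN3, in place of 1903 and 2281, and into 2758 and 1501 for LAK against DN3, in place of 2320 and 2583. It brought Gimap6 (0.56) and Gimap1 (0.48) past the threshold for LAK against DN3, and the authors' values did so for Gimap6 (0.43, limma adjusted p = 0.0217), as did leaving out LAK 3 (0.40, limma adjusted p = 0.0454) or DN3 3 (0.44, limma adjusted p = 0.0259). Without ITNK 1, Gimap9 passed against DN3 (-0.44, limma adjusted p = 0.0267) and LAK (-0.48, limma adjusted p = 0.0275). Signs turned only in differences that had not passed over all arrays. For Gimap1 in ITNK against LAK they were 0.0093 with median scaling, 0.0026 with the mean of probes, 0.0634 with slide as a block and within slide 1, 0.0226 without LAK 2, 0.0513 without LAK 3 and 0.1037 without ITNK 3. For LAK against DN3, Gimap1 gave -0.0443 and Gimap9 -0.6139 with slide as a block, and Gimap9 -0.0056 without LAK 2. Gimap8 in ITNK against DN3 gave -0.0147 without DN3 1. With 1 array left out, Gimap1 in ITNK against LAK ran from -0.1769 to 0.1037, Gimap9 in LAK against DN3 from -0.0056 to 0.1036 and Gimap8 in ITNK against DN3 from -0.0147 to 0.2994. The causes were not tested. The labels do not say whether replicate numbers pair the arrays. Same-numbered arrays correlated in their deviations by -0.02 to 0.21 (ITNK and DN3), -0.34 to 0.09 (ITNK and LAK) and -0.03 to 0.10 (LAK and DN3). Arrays of different number were not correlated in the same way, so these values cannot decide it. With the replicate number as a block, 3 Gimap genes were called in each comparison. Of 1036 list counts under the alternatives, 916 were within 1.5 times of the reported count. No level could be given for Gimap3, which had no named probe, or for Gimap4 and 2 of 3 Gimap8 probes, whose signals were not above background.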

Other observations

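Another GTPase family of immune cells, the interferon-inducible IRG and GBP proteins, which act against microbes inside cells, was also measured. Of 15 listed genes 7 were tested. In ITNK 5 were higher than in DN3 and none lower (median log2 difference 0.65), where 51.7% of all genes passed and 23.5% were higher, among them Irgm2 (1.34, limma adjusted p = 6.42e-05), Gbp2 (1.29), Gbp3 (0.78) and Igtp (0.65). Against LAK, 3 were higher in ITNK and none lower (median 0.46, with 33.7% of all genes called and 18.0% higher): Gbp2 (1.99), Igtp (1.95) and Irgm2 (1.25). For LAK against DN3 none was higher and 2 were lower, Igtp (-1.30) and Gbp2 (-0.70), with a median of 0.09, where 60.5% of all genes passed. Of the 6 GIMAP genes tested, 3 were called between ITNK and LAK, all lower in ITNK, where 15.7% of all genes were lower.

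Markers of other cell types were also counted. For ITNK against DN3, 51.7% of all genes passed (23.5% higher, 28.2% lower). For ITNK against LAK 33.7% passed (18.0% higher, 15.7% lower), and for LAK against DN3 60.5% (28.6% higher, 31.9% lower). The counts below are to be read beside these shares, and no list was tested as a set. Of the mature alpha-beta T cell markers 4 were tested, and 3 were lower in ITNK than in DN3, 3 higher in ITNK than in LAK and 4 lower in LAK than in DN3. Natural killer markers were lower in ITNK than in LAK for 8 of 10 tested. DN3 thymocyte markers, which include the targeted gene Bcl11b, were higher for 8 of 10. For LAK against DN3, all 10 natural killer markers were higher and all 10 DN3 thymocyte markers lower. Without Thy1, which T cells also express, 11 stromal markers were tested. Of these, 2 were higher and 6 lower in ITNK than in DN3. Against LAK 10 were higher in ITNK, and 11 were lower in LAK than in DN3. A marker detected on no array of a group was kept only through other groups, so the sign of such differences was partly set beforehand. In LAK this covers, among others, the 11 stromal markers, Ptcra, Rag1, Dntt and Arpp21. In DN3 it covers Klrb1c, Klrk1, Klra8, Tyrobp and Eomes, and in ITNK Klra7, Klra8, Klra4 and Ptcra. Thy1 itself did not pass for ITNK against DN3 (-0.14), was higher in ITNK than in LAK (0.71) and lower in LAK than in DN3 (-0.85). Of 6 B cell markers with a probe, Cd79b alone was tested, lower in ITNK than in DN3 by -0.50 and at least 3.86-fold higher than in LAK. Of 3 erythroid markers with a probe, Hba-a1 alone was tested, higher in ITNK than in DN3 (2.91) and LAK (3.52). The other erythroid markers, Alas2 and Klf1, were detected on no array. Of 2 myeloid markers tested none passed for ITNK against DN3, 1 was lower for ITNK against LAK, and 1 was higher and 1 lower for LAK against DN3. Of 4 mast cell markers, 2 were higher and none lower for ITNK against DN3, 2 higher and 1 lower for ITNK against LAK, and 2 higher and 2 lower for LAK against DN3.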
